A study of Homo sapiens with 18 samples.

Results

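BD98 and P-16, a pair of compounds known in these data only by their code names, were compared in LNCaP cells after 72 h. LNCaP is an established human prostate adenocarcinoma line that grows in response to androgen. The members of the comparison are all libraries labelled with either compound: 3 with BD98 at 2 µM and 3 with P-16 at 10 µM, or 6 of the 18 libraries in the series. All 20145 genes of the count table were considered, of which 15422 passed a filter on low counts and were tested. The series as a whole is about compounds that block the BRD7 bromodomain, a protein module within the PBAF complex, but neither BD98 nor P-16 has a target in the labels. Cells of every group grew in RPMI medium with fetal bovine serum, and 3 libraries of cells given the DMSO vehicle for 72 h are shown beside the 6. The doses differ, so compound and dose cannot be told apart in any value below. Whether replicates were grown as separate cultures is not in the labels, so p-values cover the spread of these libraries alone, which may be technical.

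Cells that lack amino acids or hold unfolded protein phosphorylate the initiation factor eIF2, which slows most translation but favours that of ATF4. ATF4 is a transcription factor that turns on genes for amino acid synthesis, amino acid uptake and tRNA charging, and this programme is called the integrated stress response. In prostate cells androgens turn on genes such as KLK3 and TMPRSS2 and repress others, among them the UGT2B15 and UGT2B17 genes for enzymes that inactivate androgens. BAF and PBAF are related multi-subunit complexes that use ATP to move nucleosomes and that read acetylated histones through bromodomains.

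The 6 libraries held 16835093 to 28892825 counts, and ribosomal RNA transcripts took 0.638% to 1.61% of them. The first principal component of their log2 values carried 59.4% of the variance and separated the BD98 from the P-16 libraries. Levels are counts-per-million values (CPM) scaled by TMM factors, and fold changes are log2 values of BD98 minus P-16 with the standard error (SE), so a positive value means higher with BD98. A gene was called where its adjusted p in edgeR's quasi-likelihood F test was under 0.05. In every group the luminal prostate markers KLK3, KRT8, KRT18 and HOXB13 were expressed, and they define the labelled cell type. Positions are those of whole genes in build hg38 as deposited.

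The transcriptomes of the BD98 and P-16 groups differed widely. Of 15422 genes, 6728 were called (43.6%), with 3423 higher with BD98 (22.2%) and 3305 higher with P-16 (21.4%). Large differences lay mostly on the P-16 side: 546 genes (3.54%) were called and at least 2-fold higher with P-16, and 164 (1.06%) with BD98. All 3 BD98 libraries lay above all 3 P-16 libraries for 27.6% of genes and below them for 25.8%. The split of calls depends on scaling: with library totals in place of TMM factors, 4782 genes were higher with BD98 and 2410 with P-16, or 66.5% against 50.9% of calls on the BD98 side. Against the shared DMSO libraries, 3783 genes rose (24.5%) and 3776 fell (24.5%) with BD98, while 1914 rose (12.4%) and 1785 fell (11.6%) with P-16.

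**Figure D1:**
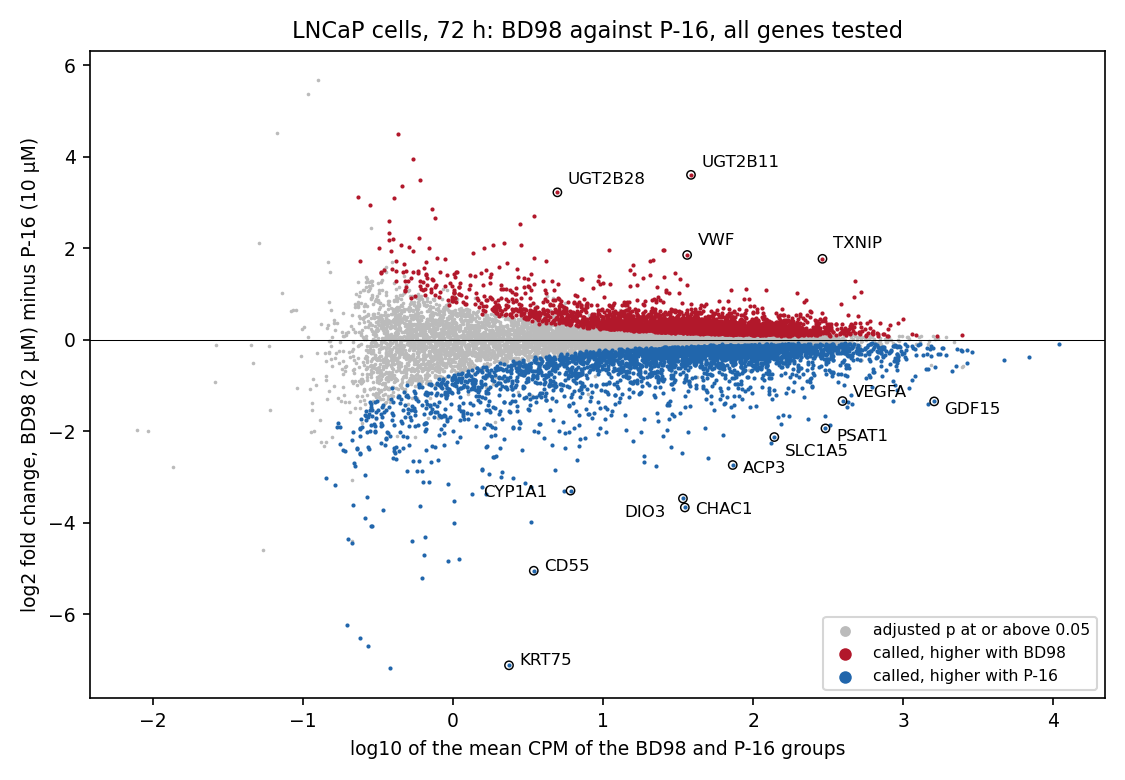
Log2 fold change of BD98 (2 µM) minus P-16 (10 µM) against the log10 of the mean CPM of both groups, 1 point per gene tested, with 1 gene at 0 CPM in both groups left off. Colour marks the 3423 genes called higher with BD98 and the 3305 called higher with P-16, and the points far from 0 lie mostly on the P-16 side.

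Integrated stress response genes were lower with BD98 almost throughout. Of the 27 measured members, 26 were higher with P-16 and 0 with BD98, against 21.4% of all genes, and the median was -1.36 against 0.01 over all genes. CHAC1, an enzyme that breaks down glutathione and a direct target of ATF4 (chr15:40953471-40956512), stood at 5.11, 5.36 and 4.92 CPM with BD98, 62.3, 66.1 and 66.4 CPM with P-16 and 76, 73.4 and 74 CPM with DMSO. Its BD98 libraries were all below its P-16 libraries, which were in turn slightly below DMSO (-3.67 ± 0.081, adjusted p = 1.05e-24). PSAT1, a serine synthesis enzyme, had 129, 130.3 and 117 CPM with BD98, 491, 479 and 473 CPM with P-16 and 575, 566 and 554 CPM with DMSO. The groups did not overlap and the order was the same as for CHAC1 (-1.94 ± 0.041, adjusted p = 6.37e-25). Against DMSO, PSAT1 differed by -2.17 ± 0.042 with BD98 and -0.23 ± 0.039 with P-16, both called.

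Promoters of 3 list members and of the tRNA synthetase gene AARS1 are shown because they hold the core of the C/EBP-ATF response element, the motif that ATF4 dimers bind. The motif TGATGNAAN was searched on both strands of the 250 bases before the start of each gene in RefSeq's GRCh38.p14 annotation, and it lies in 3.13% of 35116 promoters. It was found in 4 of the 22 stress response genes with an entry (CHAC1, ATF3, ASNS and FGF21), in 2 of 16 cytosolic tRNA synthetase genes (AARS1 and IARS1) and in 0 of 11 amino acid transporter genes. Capitals mark the match, which is a description of the letters and not evidence of binding, and the ASNS window lies inside the gene's deposited span which includes a more distant start.
CHAC1 (chr15:40953231-40953299, plus strand): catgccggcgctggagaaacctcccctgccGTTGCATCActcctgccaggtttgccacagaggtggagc
ATF3 (chr1:212565186-212565254, plus strand): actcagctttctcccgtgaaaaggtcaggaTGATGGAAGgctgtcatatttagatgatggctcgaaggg
ASNS (chr7:97872438-97872506, minus strand): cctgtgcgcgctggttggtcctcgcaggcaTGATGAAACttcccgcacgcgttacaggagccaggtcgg
AARS1 (chr16:70289656-70289724, minus strand): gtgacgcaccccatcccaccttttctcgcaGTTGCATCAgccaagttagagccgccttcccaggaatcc

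The transcription factors of the response were lower with BD98. ATF4 itself had 381, 402 and 425 CPM with BD98, 824, 825 and 835 CPM with P-16 and 913, 883 and 907 CPM with DMSO (-1.04 ± 0.036, adjusted p = 7.26e-20). DDIT3, which encodes the pro-apoptotic factor CHOP, had 23.4, 23.3 and 24.5 CPM with BD98, 100.2, 98.4 and 106 CPM with P-16 and 103, 95.8 and 101 CPM with DMSO (-2.09 ± 0.053, adjusted p = 2.20e-23). In both genes the BD98 libraries lay below all others, and for DDIT3 the P-16 and DMSO libraries overlapped. ATF3, a stress-induced repressor whose promoter is shown above, had means of 19.7 CPM with BD98, 75.5 CPM with P-16 and 74.4 CPM with DMSO (-1.93 ± 0.063, adjusted p = 1.46e-20). TRIB3, a pseudokinase that feeds back on ATF4, averaged 67 CPM with BD98, 239.6 CPM with P-16 and 345 CPM with DMSO (-1.84 ± 0.041, adjusted p = 1.05e-24). Its P-16 libraries lay between those of BD98 and DMSO without overlap.

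Enzymes and secreted proteins of the list were lower with BD98 too. ASNS, asparagine synthetase, had 77.5, 77.8 and 75.4 CPM with BD98, 246, 239.9 and 234 CPM with P-16 and 284, 289 and 280.2 CPM with DMSO (-1.64 ± 0.037, adjusted p = 1.05e-24). STC2, a secreted glycoprotein, averaged 83.2 ± 3.78 CPM with BD98, 263 ± 7.22 CPM with P-16 and 314 ± 2.74 CPM with DMSO (SD, n = 3; -1.66 ± 0.037, adjusted p = 1.05e-24). For both genes the P-16 libraries lay below DMSO and far above BD98. PHGDH, the first enzyme of serine synthesis, averaged 239.9 CPM with BD98, 616 CPM with P-16 and 613 CPM with DMSO (-1.36 ± 0.036, adjusted p = 6.37e-23). GDF15, a stress-induced cytokine, had 907, 882 and 931 CPM with BD98, 2239.9, 2308 and 2384 CPM with P-16 and 1949, 1889.8 and 1995 CPM with DMSO (-1.35 ± 0.046, adjusted p = 3.47e-18). Its P-16 libraries were above DMSO and its BD98 libraries below it, at 0.25 ± 0.045 and -1.10 ± 0.046. ALDH1L2, a mitochondrial folate enzyme, was the only measured member not called (-0.40 ± 0.24, adjusted p = 0.189). Against the same DMSO libraries, 0 rose and 26 fell with BD98 (all genes 24.5% and 24.5%). With P-16, 5 rose and 12 fell (all genes 12.4% and 11.6%).

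Genes that bring amino acids into the cell were also lower with BD98. Of 15 measured amino acid transporters, 12 were higher with P-16 and 2 with BD98, against 21.4% and 22.2% of all genes. The median was -1.06, or -1.01 without SLC38A4, which had 0 counts with BD98 and 2 with P-16. SLC7A5, the light chain of the large neutral amino acid exchanger, had 4.98, 4.16 and 5.69 CPM with BD98, 31.4, 32 and 33.3 CPM with P-16 and 31, 34 and 34.1 CPM with DMSO (-2.67 ± 0.092, adjusted p = 5.98e-20). The P-16 and DMSO libraries overlapped, and the BD98 libraries lay far below both. SLC1A5, the main glutamine importer, had 50.8, 51.6 and 52 CPM with BD98, 223, 225 and 227 CPM with P-16 and 271, 273 and 293 CPM with DMSO (-2.13 ± 0.043, adjusted p = 2.01e-25). Here the 3 groups did not overlap, with P-16 a little below DMSO. SLC7A11, the cystine-glutamate exchanger, averaged 45.2 CPM with BD98, 216 CPM with P-16 and 260.4 CPM with DMSO (-2.26 ± 0.11, adjusted p = 1.41e-09). The glycine transporter SLC6A9 differed by -1.97 ± 0.073 and the neutral amino acid transporter SLC38A1 by -1.06 ± 0.042. The glutamate transporters SLC1A1 (0.48 ± 0.078, adjusted p = 1.15e-05) and SLC1A2 (2.20 ± 0.54, adjusted p = 0.00151) were the exceptions, both higher with BD98, SLC1A2 at only 0.66 CPM with BD98 and 0.136 CPM with P-16.

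Cytosolic aminoacyl-tRNA synthetases, which load amino acids onto tRNAs, differed in the same direction but less. Of 20 members, 16 were higher with P-16 and 1 with BD98, against 21.4% and 22.2% of all genes, with a median of -0.41. GARS1, the glycine enzyme, had 127, 129 and 134 CPM with BD98, 307, 307 and 311 CPM with P-16 and 336, 331 and 339 CPM with DMSO (-1.24 ± 0.037, adjusted p = 1.84e-21). All BD98 libraries lay below all P-16 libraries, and those lay just below DMSO. SARS1 for serine (-1.04 ± 0.034), CARS1 for cysteine (-0.98 ± 0.042) and AARS1 for alanine (-0.82 ± 0.033) came next by p. VARS1 (-0.067 ± 0.043), HARS1 (-0.042 ± 0.045) and RARS1 (0.0055 ± 0.044) did not pass the test, and QARS1, for glutamine, was higher with BD98 (0.14 ± 0.040, adjusted p = 0.00517). Against DMSO, 1 rose and 15 fell with BD98 (all genes 24.5% and 24.5%), and 1 rose and 5 fell with P-16 (12.4% and 11.6%).

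Folding genes of the endoplasmic reticulum differed less again. Of 20 unfolded protein response genes, 15 were higher with P-16 and 0 with BD98, against 21.4% and 22.2% of all genes. The median was -0.21. ERN1, which encodes the stress sensor IRE1, averaged 39.7 CPM with BD98, 73.2 CPM with P-16 and 86.4 CPM with DMSO (-0.88 ± 0.046, adjusted p = 1.18e-15). XBP1, the transcription factor whose messenger IRE1 splices, averaged 154 CPM with BD98, 244 CPM with P-16 and 270.04 CPM with DMSO (-0.66 ± 0.036, adjusted p = 2.96e-15). In both, the BD98 libraries lay below all P-16 libraries and the P-16 libraries below DMSO. HSPA5, the chaperone BiP, differed by -0.39 ± 0.033, with BD98 below DMSO (-0.14 ± 0.033) and P-16 above it (0.25 ± 0.033). Several chaperone genes did not pass the test, among them PDIA4 (-0.068 ± 0.035) and CALR (0.053 ± 0.034).

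**Figure D2:**
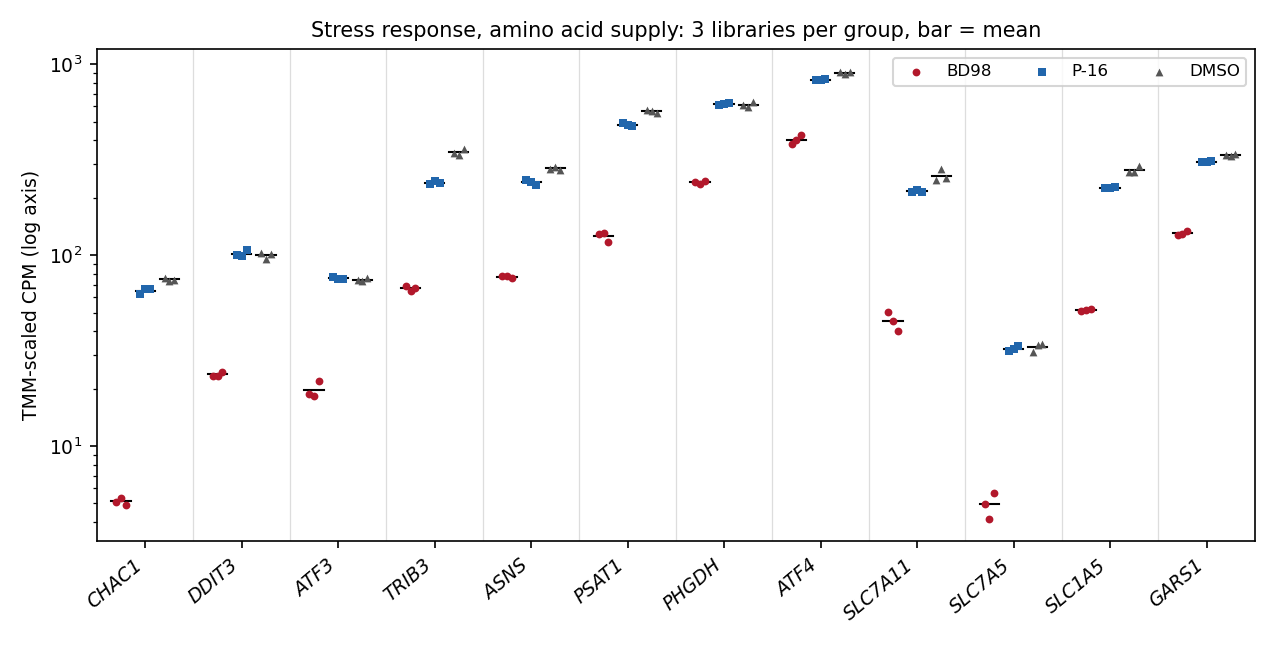
TMM-scaled CPM on a log axis of 12 stress response, transporter and tRNA synthetase genes in the 3 BD98, 3 P-16 and 3 DMSO libraries, 1 point per library and a bar at each group mean. The BD98 libraries lie below all P-16 and DMSO libraries for each gene drawn, while P-16 lies at or a little below DMSO.

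MYC and most of its growth genes were lower with BD98. MYC, a transcription factor that drives ribosome production, had 243, 239 and 251 CPM with BD98, 412, 426 and 435 CPM with P-16 and 462, 473 and 489 CPM with DMSO (-0.79 ± 0.042, adjusted p = 1.76e-15). The groups did not overlap, with P-16 between BD98 and DMSO. Of 30 MYC targets and ribosome biogenesis genes, 20 were higher with P-16 and 2 with BD98, against 21.4% and 22.2% of all genes. The median was -0.18. Under library totals the 20 became 13 and the 2 became 4, and the 2 became 1 with any 1 of 5 libraries left out (all but P-16 replicate 1). GNL3, a nucleolar GTPase, averaged 194 CPM with BD98, 299 CPM with P-16 and 294 CPM with DMSO (-0.63 ± 0.036, adjusted p = 1.32e-14), and PES1, which acts in large subunit assembly, 104 CPM with BD98, 133 CPM with P-16 and 129.9 CPM with DMSO (-0.36 ± 0.041, adjusted p = 2.64e-08). NCL (0.00041 ± 0.047), NOP56 (0.037 ± 0.035) and POLR1A (-0.015 ± 0.042) did not pass the test. Against DMSO, 1 rose and 25 fell with BD98 (all genes 24.5% and 24.5%), and 0 rose and 8 fell with P-16 (12.4% and 11.6%).

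Immediate-early genes, which respond to growth factor signalling, were mostly lower with BD98 too, though many had low levels. Of 18 measured members, 12 were higher with P-16 and 1 with BD98, against 21.4% and 22.2% of all genes, with a median of -0.40. ATF3, counted above among the stress response genes, is also among these 12 and had the smallest p of the list. FOS had 0.386, 0.342 and 0.435 CPM with BD98, 3.58, 2.65 and 2.96 CPM with P-16 and 3.2, 3.94 and 3.52 CPM with DMSO (-2.95 ± 0.24, adjusted p = 4.50e-11), and its P-16 and DMSO libraries overlapped. JUN, its partner in AP-1, averaged 87.1 CPM with BD98, 126 CPM with P-16 and 113 CPM with DMSO (-0.53 ± 0.039, adjusted p = 3.16e-12). DUSP4, a phosphatase that switches off MAP kinases, was the exception at 49.8, 47.1 and 48 CPM with BD98, 26.9, 29.7 and 27.9 CPM with P-16 and 68.4, 64.1 and 71.6 CPM with DMSO (0.78 ± 0.058, adjusted p = 4.76e-12). Both compounds lay below DMSO for DUSP4, and P-16 lay lower.

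Glycolysis and hypoxia-inducible genes were higher with P-16 than with BD98. Of 22 measured members, 17 were higher with P-16 and 0 with BD98, against 21.4% and 22.2% of all genes, with a median of -0.58. Against DMSO, 8 rose and 8 fell with BD98 (all genes 24.5% and 24.5%), and 21 rose and 0 fell with P-16 (12.4% and 11.6%). VEGFA, the angiogenic factor, had 224, 221 and 225 CPM with BD98, 552, 566 and 578 CPM with P-16 and 404, 417 and 415 CPM with DMSO (-1.34 ± 0.040, adjusted p = 1.50e-21). BNIP3, a mitophagy receptor, had 266, 273 and 266 CPM with BD98, 643, 622 and 607 CPM with P-16 and 441, 432 and 423 CPM with DMSO (-1.22 ± 0.044, adjusted p = 2.02e-19). For both genes P-16 lay above all DMSO libraries and BD98 below them. The glycolytic enzyme PGK1 averaged 806 CPM with BD98, 1494 CPM with P-16 and 1050.2 CPM with DMSO (-0.89 ± 0.031, adjusted p = 1.08e-19), with the same order of groups. HK2, hexokinase, differed by -0.89 ± 0.042, and PFKFB3, which makes an activator of phosphofructokinase, by -0.96 ± 0.050. ADM (0.47 ± 0.21), ALDOC (-0.029 ± 0.050), HK1 (-0.037 ± 0.040), ANKRD37 (-0.20 ± 0.16) and CA9 (-0.64 ± 0.39) did not pass the test. Oxygen was not a variable of the design.

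TXNIP, a thioredoxin-binding protein that limits glucose uptake and is induced by the sugar-sensing factors MondoA and ChREBP, had the smallest p among genes higher with BD98. TXNIP (chr1:145992442-145996579) had 438, 456 and 450.2 CPM with BD98, 137, 129 and 129 CPM with P-16 and 126, 119 and 118 CPM with DMSO (1.77 ± 0.036, adjusted p = 2.20e-25). The BD98 libraries lay far above all others, and P-16 lay slightly above DMSO. Its promoter is shown because it holds a carbohydrate response element, a pair of CACGNG boxes set 5 bases apart, searched as above and present in 0.0456% of promoters. Capitals mark the match.
TXNIP (chr1:145996621-145996697, minus strand): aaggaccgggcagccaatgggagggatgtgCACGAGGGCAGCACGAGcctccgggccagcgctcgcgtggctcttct

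Genes of the antioxidant response were mostly higher with P-16. Of 19 measured targets of NRF2, the factor that answers electrophiles, 15 were higher with P-16 and 1 with BD98. The shares of all genes were 21.4% and 22.2%, and the median of the list was -0.33. SLC7A11 belongs to this list as well as to those above. NQO1, a quinone reductase, had 49.7, 48.7 and 47.6 CPM with BD98, 123, 118 and 118 CPM with P-16 and 71.6, 70.9 and 72.1 CPM with DMSO (-1.30 ± 0.053, adjusted p = 2.69e-18). P-16 lay above and BD98 below all DMSO libraries. FTH1, the ferritin heavy chain, averaged 1814 CPM with BD98, 2715 CPM with P-16 and 2041 CPM with DMSO (-0.58 ± 0.036, adjusted p = 5.97e-14), and TKT, of the pentose phosphate pathway, 337 CPM with BD98, 494 CPM with P-16 and 455 CPM with DMSO (-0.55 ± 0.036, adjusted p = 2.11e-13). CYP1A1, a cytochrome P450 that the aryl hydrocarbon receptor induces, had 0.816, 1.48 and 1.11 CPM with BD98, 10.9, 11.6 and 10.4 CPM with P-16 and 0.349, 0.759 and 0.802 CPM with DMSO (-3.30 ± 0.20, adjusted p = 2.43e-14). The P-16 libraries were far above the rest (4.06 ± 0.22 against DMSO), and BD98 was called above DMSO as well (0.76 ± 0.28). Its neighbour CYP1A2 had 5 counts in the BD98 libraries and 135 in the P-16 libraries (-4.80 ± 0.61, adjusted p = 2.15e-07). NQO1, described above, is on the list of that receptor's targets as well. The remaining targets were not called, such as TIPARP (0.0076 ± 0.12), or were higher with BD98, such as ALDH1A3 (0.38 ± 0.041, adjusted p = 1.15e-08). On the BD98 side the values of the list ran up to 2.32, in another gene. The list of 7 held 3 genes higher with P-16 (CYP1A1, CYP1A2 and NQO1) and 2 with BD98, against 21.4% and 22.2% of all genes. The 2 became 1 under DESeq2, without a filter, under a stricter filter and with any 1 of 5 libraries left out (all but P-16 replicate 1).

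Of 5 measured metallothionein and zinc exporter genes, 3 were higher with P-16 and 0 with BD98, against 21.4% and 22.2% of all genes. The 3 were MT2A (-1.39 ± 0.12, adjusted p = 3.44e-07), MT1X (-1.16 ± 0.12) and MT1G (-0.87 ± 0.072). Metallothioneins bind zinc and copper, and their near-identical copies make the split of reads between them uncertain. Of 16 heat shock genes, 8 were higher with P-16 and 0 with BD98, against 21.4% and 22.2% of all genes. The share called was 50%, against 43.6% of all genes. Under library totals the 0 became 5. The mitochondrial chaperonin HSPD1 averaged 714 CPM with BD98, 1069.9 CPM with P-16 and 1098 CPM with DMSO (-0.58 ± 0.037, adjusted p = 1.01e-13), and the small heat shock gene HSPB1 330.00 CPM with BD98, 507 CPM with P-16 and 364 CPM with DMSO (-0.62 ± 0.059, adjusted p = 2.77e-08). HSPA6, with 30 counts in the BD98 libraries and 89 in the P-16 libraries, had the list's largest difference (-1.74 ± 0.34, adjusted p = 1.18e-04). The inducible HSPA1B (0.063 ± 0.033) and DNAJB1 (0.064 ± 0.037) did not pass the test.

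Androgen-induced genes were divided between the compounds. Of 42 measured members, 20 were higher with BD98 and 13 with P-16, against 22.2% and 21.4% of all genes. The median was 0.11, or 0.12 without SLC38A4. Against DMSO, 2 rose and 32 fell with BD98 (all genes 24.5% and 24.5%), and 3 rose and 33 fell with P-16 (12.4% and 11.6%). TMPRSS2, a serine protease, had 604, 621 and 631 CPM with BD98, 322, 312 and 331 CPM with P-16 and 805, 809 and 805 CPM with DMSO (0.94 ± 0.037, adjusted p = 9.56e-19). BD98 lay below DMSO for TMPRSS2 and P-16 lay lower still, without overlap. The prostaglandin receptor PTGER4 averaged 6.35 CPM with BD98, 1.91 CPM with P-16 and 6.33 CPM with DMSO (1.72 ± 0.18, adjusted p = 3.96e-09) and the fatty acid elongase ELOVL5 704 CPM with BD98, 340.00 CPM with P-16 and 748 CPM with DMSO (1.05 ± 0.052, adjusted p = 2.40e-14). For these 2 genes the BD98 and DMSO libraries overlapped and the P-16 libraries lay below.

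The kallikreins differed less: KLK2 averaged 296 CPM with BD98, 221 CPM with P-16 and 596 CPM with DMSO (0.42 ± 0.036, adjusted p = 8.64e-11). KLK3, which encodes prostate-specific antigen, had 2499.6, 2583 and 2588 CPM with BD98, 2386, 2394 and 2416 CPM with P-16 and 4325, 4232 and 4276 CPM with DMSO (0.092 ± 0.031, adjusted p = 0.0176). The KLK3 groups did not overlap, but the call was lost without BD98 replicate 2 (adjusted p = 0.0814), BD98 replicate 3 (0.0703) or P-16 replicate 1 (0.0659). ACP3, prostatic acid phosphatase (chr3:132317407-132368302), ran the other way and had the smallest p of all genes higher with P-16, at 17.7, 20.1 and 19.3 CPM with BD98, 130.04, 123 and 128 CPM with P-16 and 128, 132 and 133 CPM with DMSO (-2.74 ± 0.050, adjusted p = 4.70e-26). The metalloprotease ADAMTS1 had 219, 229 and 226 CPM with BD98, 617, 615 and 629 CPM with P-16 and 556, 575 and 576 CPM with DMSO (-1.46 ± 0.033, adjusted p = 1.63e-24). BD98 lay far below both other groups for ACP3 and ADAMTS1, and P-16 overlapped DMSO for ACP3 and lay just above it for ADAMTS1.

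Androgen-repressed genes were split as well. Of 18 measured members, 6 were higher with BD98 and 10 with P-16, against 22.2% and 21.4% of all genes, with a median of -0.44. Against DMSO, 6 rose and 9 fell with BD98 (all genes 24.5% and 24.5%), and 10 rose and 6 fell with P-16 (12.4% and 11.6%). DDC, aromatic amino acid decarboxylase, had 38.8, 38.8 and 35.9 CPM with BD98, 109.6, 106 and 98.9 CPM with P-16 and 53.6, 49.3 and 49.7 CPM with DMSO (-1.48 ± 0.052, adjusted p = 1.07e-19). GRB10, an adaptor of insulin receptor signalling, averaged 268 CPM with BD98, 536 CPM with P-16 and 279 CPM with DMSO (adjusted p = 1.26e-19). P-16 lay above DMSO for both, and BD98 below it, though GRB10 was not called against DMSO with BD98. HES6, a neurogenic factor, averaged 58.1 CPM with BD98, 109 CPM with P-16 and 184 CPM with DMSO (-0.91 ± 0.050, adjusted p = 9.94e-14), and the imprinted zinc finger gene PEG3 102 CPM with BD98, 227 CPM with P-16 and 320.3 CPM with DMSO (-1.16 ± 0.047, adjusted p = 2.69e-18), with both compounds under DMSO.

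The 5 UGT2B genes described here, from a family of enzymes that attach glucuronic acid to steroids and other compounds, were higher with BD98. UGT2B11 (chr4, 69199951 to 69214748) had 71.4, 71.5 and 70.4 CPM with BD98, 5.49, 5.44 and 6.75 CPM with P-16 and 18.9, 18.5 and 17.4 CPM with DMSO (3.60 ± 0.080, adjusted p = 1.05e-24). BD98 lay above all DMSO libraries and P-16 below them. UGT2B28 averaged 8.92 CPM with BD98, 0.982 CPM with P-16 and 4.73 CPM with DMSO (3.22 ± 0.25, adjusted p = 9.14e-12), with the same order. UGT2B10 averaged 17.4 CPM with BD98, 4.42 CPM with P-16 and 4.38 CPM with DMSO (1.96 ± 0.14, adjusted p = 3.26e-12), and its P-16 and DMSO libraries overlapped. UGT2B15, at 263, 280.3 and 247 CPM with BD98, 135, 127 and 126 CPM with P-16 and 72.3, 68.2 and 73.5 CPM with DMSO, and UGT2B17, at 465, 507 and 477 CPM with BD98, 282, 289 and 278 CPM with P-16 and 133, 130.3 and 123 CPM with DMSO, had a different order. Both compounds lay above DMSO for these 2 genes and BD98 lay higher, by 1.03 ± 0.044 and 0.77 ± 0.038. These genes lie side by side on chromosome 4 and are close copies of each other, so the division of reads between them is uncertain.

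**Figure D3:**
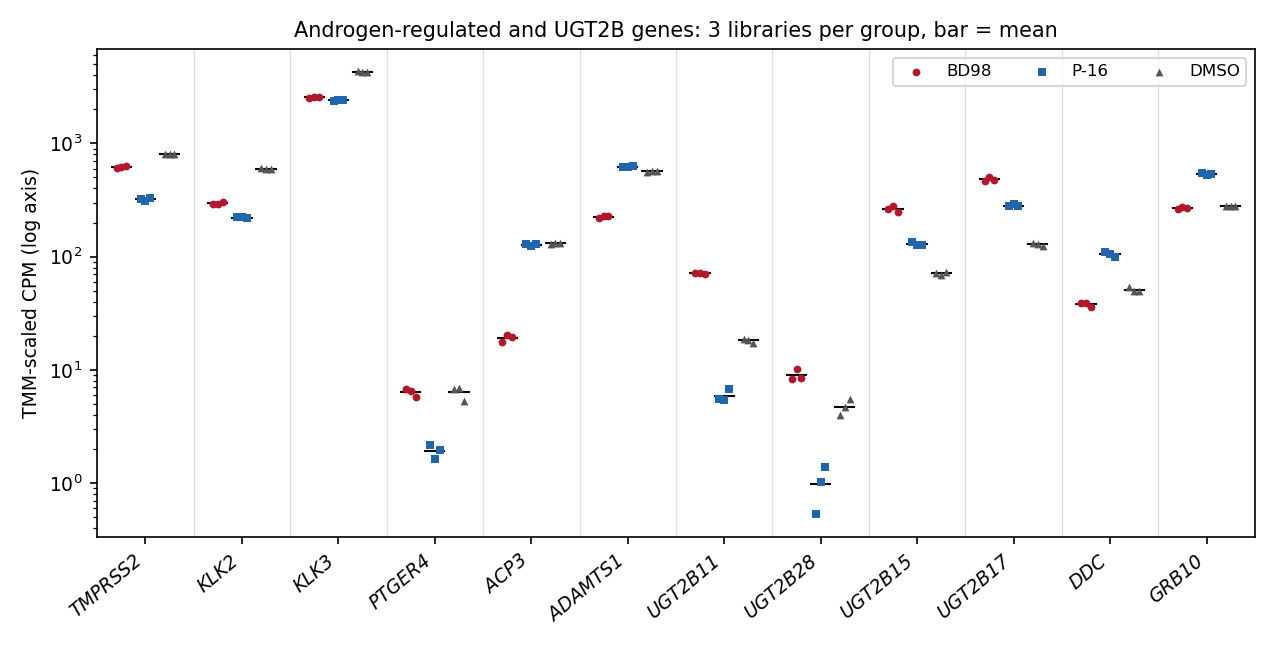
TMM-scaled CPM on a log axis of 12 androgen-regulated and UGT2B genes in the 3 BD98, 3 P-16 and 3 DMSO libraries, 1 point per library and a bar at each group mean. TMPRSS2 lies lower with P-16, ACP3 and ADAMTS1 lie lower with BD98, and the UGT2B genes lie higher with BD98 than with P-16.

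DNA replication genes were higher with BD98 by small amounts. Of 35 members, 29 were higher with BD98 and 1 with P-16, against 22.2% and 21.4% of all genes, with a median of 0.32. FEN1, the flap endonuclease, had 100.01, 101 and 111 CPM with BD98, 73.4, 72.5 and 80.4 CPM with P-16 and 76.7, 77.9 and 76.2 CPM with DMSO (0.47 ± 0.053, adjusted p = 2.22e-08). Its BD98 libraries lay above all others, and P-16 overlapped DMSO. TYMS, which makes thymidylate, averaged 113 CPM with BD98, 82.4 CPM with P-16 and 97.9 CPM with DMSO (0.46 ± 0.047, adjusted p = 4.52e-09). RRM1, of ribonucleotide reductase, differed by 0.39 ± 0.041 and the helicase subunit MCM3 by 0.36 ± 0.039. CLSPN, a checkpoint mediator at replication forks, had the largest difference of the list (0.87 ± 0.11, adjusted p = 4.78e-07). TK1, thymidine kinase, was the 1 gene higher with P-16 (-0.23 ± 0.057, adjusted p = 0.00149). The 1 became 2 under several alternatives, among them DESeq2 and a stricter filter. Against DMSO, 21 rose and 4 fell with BD98 (all genes 24.5% and 24.5%), and 0 rose and 9 fell with P-16 (12.4% and 11.6%). TYMS overlaps ENOSF1 on the opposite strand, and the use of strand in counting is not given in the sources used here.

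Of 36 mitosis genes, 15 were higher with BD98 and 1 with P-16, with a median of 0.13, so 20 were not called. The share called, 44.4%, lay near the 43.6% of all genes, of which 22.2% were higher with BD98 and 21.4% with P-16. Under library totals the 15 became 23. The proliferation marker MKI67 had 218, 212 and 241 CPM with BD98, 179.7, 178 and 187 CPM with P-16 and 224, 235 and 231 CPM with DMSO (0.30 ± 0.042, adjusted p = 8.21e-07). P-16 lay below both other groups, which overlapped. PRC1, which bundles microtubules at the midzone, differed by 0.34 ± 0.050 and ANLN, a cytokinesis scaffold, by 0.33 ± 0.054. CDC20 (-0.11 ± 0.067), PLK1 (0.044 ± 0.060) and CCNB2 (0.087 ± 0.072) did not pass the test, and CENPE, a kinetochore motor, was higher with P-16 (-0.40 ± 0.078, adjusted p = 1.35e-04). Against DMSO, 0 rose and 24 fell with BD98 (all genes 24.5% and 24.5%), and 0 rose and 34 fell with P-16 (12.4% and 11.6%). Cell number and the share of cells in each cycle phase are not analysed here.

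Of 15 measured clustered histone genes, 9 were higher with BD98 and 0 with P-16, against 22.2% and 21.4% of all genes. The median difference in these mRNA libraries was 0.54. How far such libraries capture histone messengers that lack a poly(A) tail was not tested, so the counts may cover only part of them. H2AC13 averaged 3.66 CPM with BD98, 1.61 CPM with P-16 and 2.41 CPM with DMSO (1.14 ± 0.23, adjusted p = 1.87e-04) and H2BC11 2.62 CPM with BD98, 0.973 CPM with P-16 and 1.03 CPM with DMSO (1.45 ± 0.26, adjusted p = 3.68e-05). Near copies share reads, so the split between them is uncertain. Among 10 genes known to rise with inhibitors of BET bromodomain proteins, 7 were higher with BD98 and 0 with P-16 (median 0.31). The shares of all genes were 22.2% and 21.4%. The 0 became 1 under several alternatives, among them DESeq2 and a stricter filter. Most of the 10 are histone genes, such as H2BC12 at 189, 194 and 191 CPM with BD98, 123, 122 and 117 CPM with P-16 and 124, 112 and 117 CPM with DMSO (0.67 ± 0.037, adjusted p = 6.31e-15). HEXIM1, an inhibitor of the elongation factor P-TEFb, averaged 118 CPM with BD98, 103 CPM with P-16 and 86.7 CPM with DMSO (0.20 ± 0.042, adjusted p = 3.17e-04), with both compounds above DMSO.

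Interferon response genes were higher with BD98. Of 29 measured members, 19 were higher with BD98 and 4 with P-16, against 22.2% and 21.4% of all genes, with a median of 0.45. OAS3, a sensor of double-stranded RNA, had 53, 55 and 55.2 CPM with BD98, 35.2, 32.6 and 32.4 CPM with P-16 and 35.6, 36.2 and 35.3 CPM with DMSO (0.70 ± 0.056, adjusted p = 2.36e-11). STAT2, a transcription factor of the pathway, had 81, 76.5 and 79.97 CPM with BD98, 54.4, 58.1 and 51.8 CPM with P-16 and 54.4, 50.1 and 50.5 CPM with DMSO (0.53 ± 0.057, adjusted p = 7.76e-09). The BD98 libraries lay above all others for both, while P-16 overlapped DMSO for STAT2 and lay below it, not called, for OAS3. PARP9 differed by 0.57 ± 0.055 and its partner DTX3L by 0.49 ± 0.053, and the 2 genes overlap on opposite strands. IFI44 averaged 4.51 CPM with BD98, 1.8 CPM with P-16 and 1.98 CPM with DMSO (1.32 ± 0.18, adjusted p = 5.10e-07). OASL (-1.56 ± 0.29, adjusted p = 6.95e-05), IRF1 (-0.57 ± 0.16), ISG20 (-0.39 ± 0.090) and PARP12 (-0.16 ± 0.065) were higher with P-16. Against DMSO, 20 rose and 4 fell with BD98 (all genes 24.5% and 24.5%), and 1 rose and 2 fell with P-16 (12.4% and 11.6%).

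Antigen presentation genes were split, with 6 of 15 higher with BD98 and 4 with P-16, against 22.2% and 21.4% of all genes. The 4 became 1 under library totals. B2M, the light chain of class I molecules, averaged 242 CPM with BD98, 169 CPM with P-16 and 218 CPM with DMSO (0.52 ± 0.040, adjusted p = 6.17e-12), and the peptide-loading factor TAPBP 139 CPM with BD98, 96.8 CPM with P-16 and 85 CPM with DMSO (0.52 ± 0.045, adjusted p = 1.34e-10). NLRC5, the class I transactivator, was lower with BD98 at 8.06 CPM with BD98, 15.7 CPM with P-16 and 11.1 CPM with DMSO (-0.97 ± 0.11, adjusted p = 1.93e-08), and HLA-B did not pass the test (-0.033 ± 0.043).

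**Figure D4:**
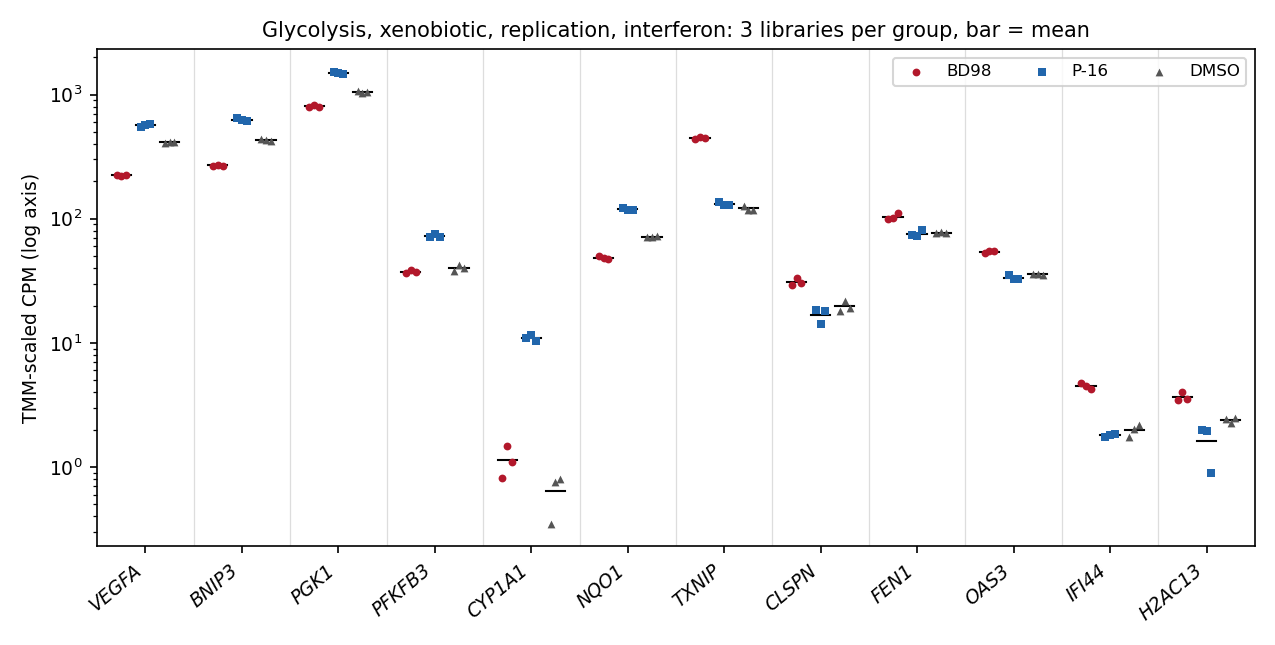
TMM-scaled CPM on a log axis of 12 glycolysis, xenobiotic, replication, interferon and histone genes in the 3 BD98, 3 P-16 and 3 DMSO libraries, 1 point per library and a bar at each group mean. VEGFA, BNIP3, PGK1, PFKFB3, CYP1A1 and NQO1 are highest with P-16, and TXNIP, CLSPN, FEN1, OAS3, IFI44 and H2AC13 are highest with BD98.

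Messengers of the BAF and PBAF subunits, the complexes that the series concerns, were called about as often as all genes (46.4% against 43.6%). Of 28 measured members, 9 were higher with BD98 and 4 with P-16, with a median of 0.096, and the 9 became 20 under library totals. BRD7 had 56.8, 70.1 and 62.4 CPM with BD98, 51.6, 54.2 and 55.7 CPM with P-16 and 58.1, 59.8 and 54.1 CPM with DMSO (0.23 ± 0.062, adjusted p = 0.00391). The BD98 libraries lay above the P-16 libraries and overlapped DMSO, but the call was lost without BD98 replicate 2 (adjusted p = 0.0715). BRD9, a bromodomain subunit of non-canonical BAF, had 39.1, 38.1 and 41.4 CPM with BD98, 35.1, 34.3 and 36.5 CPM with P-16 and 33.6, 32.4 and 32.1 CPM with DMSO (0.17 ± 0.057, adjusted p = 0.0169). Its call was lost without BD98 replicate 3 (adjusted p = 0.116), P-16 replicate 1 (0.0556) or P-16 replicate 2 (0.0695). PHF10, a PBAF subunit, had the largest difference called (0.46 ± 0.062, adjusted p = 5.77e-07), at 48.2 CPM with BD98 and 35 CPM with P-16. The ATPase SMARCA4 differed by 0.20 ± 0.037, adjusted p = 5.26e-05. PBRM1, the polybromo subunit of PBAF, was higher with P-16 (-0.24 ± 0.041, adjusted p = 1.70e-05), as was SMARCD2 (-0.24 ± 0.033). ARID1A did not pass the test (0.096 ± 0.046, adjusted p = 0.0908), with an unadjusted 95% interval of 0.0023 to 0.19. ARID1A was called under 5 alternatives: library totals (adjusted p = 0.0115), only the 6 BD98 and P-16 libraries (0.0484), the 9 with DMSO (0.0416), without P-16 replicate 3 (0.0361) and without the ACBI libraries (0.0498).

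Lipid synthesis genes were mixed. Of 19 fatty acid genes, 10 were higher with P-16 and 3 with BD98 (median -0.23), against 21.4% and 22.2% of all genes. SCD, the stearoyl-CoA desaturase, had 692, 726 and 717 CPM with BD98, 1493, 1473 and 1494 CPM with P-16 and 1148, 1164 and 1156 CPM with DMSO (-1.06 ± 0.033, adjusted p = 2.67e-21). P-16 lay above DMSO and BD98 below it. Malic enzyme ME1 differed by -1.05 ± 0.049 and the desaturase FADS2 by -0.78 ± 0.042, while FASN did not pass the test (-0.10 ± 0.047). Of 24 measured cholesterol genes, 8 were higher with P-16 and 5 with BD98 (median -0.10), against 21.4% and 22.2% of all genes, and the 8 became 5 under library totals or without P-16 replicate 3. The sterol carrier STARD4 had the largest difference (-1.64 ± 0.17, adjusted p = 5.26e-07).

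**Figure D5:**
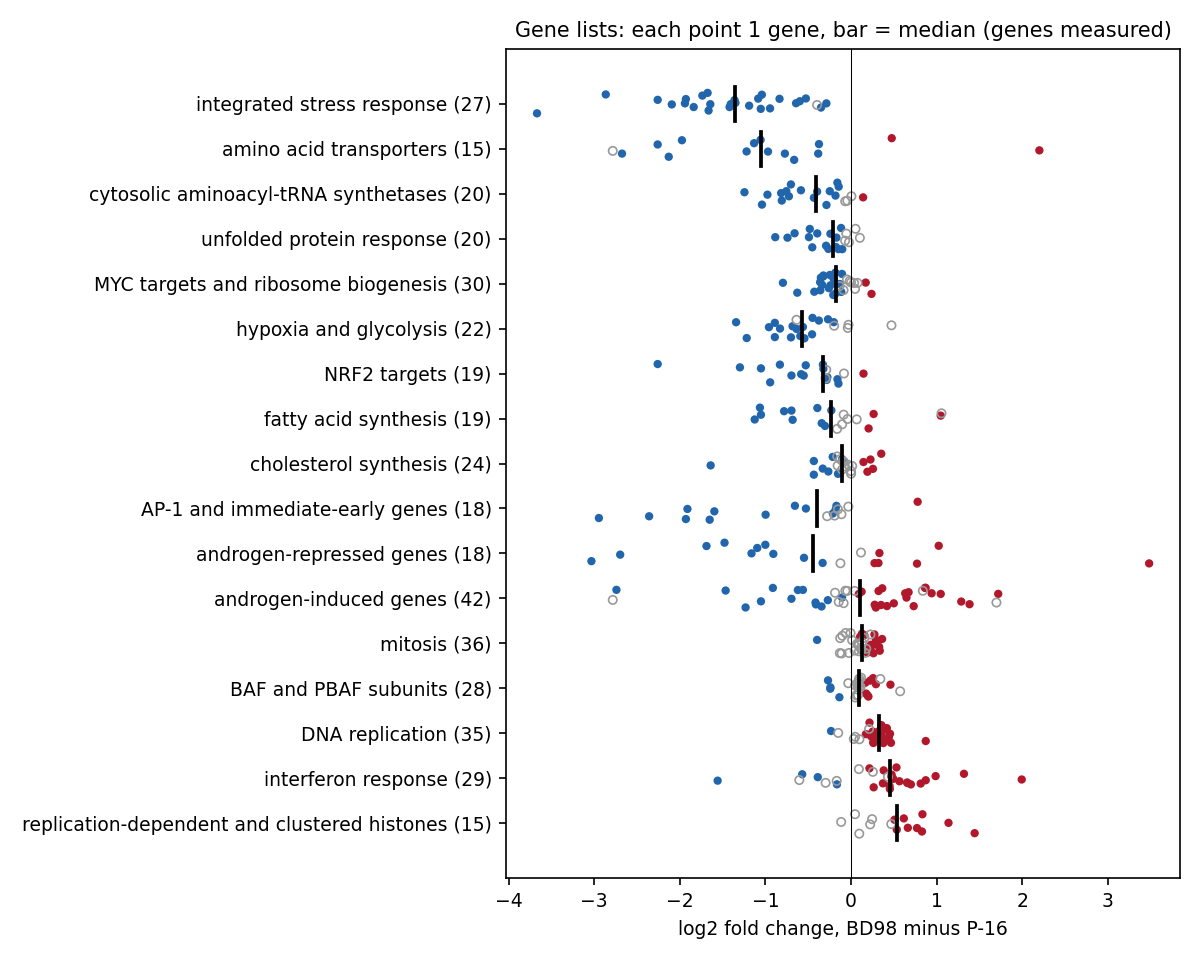
Log2 fold change of BD98 minus P-16 for each measured gene of a selection of the lists, 1 point per gene. Open points are genes not called, a bar marks each list's median and the number measured is in brackets. The integrated stress response and amino acid transporters lie furthest to the P-16 side, and DNA replication, histone and interferon genes lie on the BD98 side.

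Several genes outside the lists differed widely. KRT75, a hair follicle keratin (chr12:52424070-52434371), had 2 counts in the 3 BD98 libraries and 298 in the 3 P-16 libraries, a ratio of 165 with a counting interval of 45.2 to 1365. CD55, which shields cells from complement, had 0.172, 0.171 and 0.234 CPM with BD98, 7.73, 5.95 and 6.42 CPM with P-16 and 8.15, 7.79 and 7.62 CPM with DMSO (-5.05 ± 0.26, adjusted p = 4.88e-16). BD98 lay far below both other groups, which overlapped. DIO3, which inactivates thyroid hormone, had 5.88, 5.01 and 5.83 CPM with BD98, 64.3, 60.6 and 62.5 CPM with P-16 and 39.98, 42.2 and 38.6 CPM with DMSO (-3.47 ± 0.070, adjusted p = 2.01e-25). DAPK1, a death-associated kinase, averaged 0.413 CPM with BD98, 6.15 CPM with P-16 and 3.15 CPM with DMSO (-3.98 ± 0.23, adjusted p = 1.63e-14). For DIO3 and DAPK1 the P-16 libraries lay above DMSO and the BD98 libraries below it. S100P, a calcium-binding protein, averaged 0.987 CPM with BD98, 10.04 CPM with P-16 and 27.9 CPM with DMSO (-3.31 ± 0.17, adjusted p = 3.74e-16), with both compounds below DMSO. The semaphorin SEMA6A (-2.77 ± 0.070, adjusted p = 2.20e-23) and the forkhead gene FOXN4 (-3.22 ± 0.27, adjusted p = 4.62e-11) were also higher with P-16 and lay on opposite sides of DMSO with the 2 compounds. TRIM49D1 (-2.86 ± 0.20) has a near-identical copy, TRIM49D2, so its value is uncertain.

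On the BD98 side, ALPK2, an alpha-kinase expressed at low levels, averaged 6 CPM with BD98, 0.926 CPM with P-16 and 2.43 CPM with DMSO (2.69 ± 0.22, adjusted p = 4.29e-11). The prostate noncoding RNA PCSEAT averaged 4.78 CPM with BD98, 0.821 CPM with P-16 and 3.47 CPM with DMSO (2.52 ± 0.29, adjusted p = 2.78e-08), and MYBPC1, a myosin-binding protein, 4.61 CPM with BD98, 1.09 CPM with P-16 and 4.04 CPM with DMSO (2.07 ± 0.23, adjusted p = 2.36e-08). P-16 lay below all DMSO libraries for these 3 genes, and BD98 lay above DMSO for ALPK2 and PCSEAT, though PCSEAT was not called against DMSO. CD24, a surface glycoprotein, had 37.2, 43.2 and 38.4 CPM with BD98, 9.44, 8.83 and 12.5 CPM with P-16 and 7.97, 7.18 and 9.05 CPM with DMSO (1.96 ± 0.096, adjusted p = 2.56e-16). COL12A1, a collagen, averaged 31.6 CPM with BD98, 9.58 CPM with P-16 and 9.71 CPM with DMSO (1.72 ± 0.084, adjusted p = 2.08e-16). BD98 lay above all other libraries for both. TM4SF1, a tetraspanin-like surface protein, averaged 40.4 CPM with BD98, 10.3 CPM with P-16 and 29.4 CPM with DMSO (1.96 ± 0.10, adjusted p = 6.02e-16), and GNAI1, an inhibitory G protein subunit, 23.8 CPM with BD98, 7.7 CPM with P-16 and 12.7 CPM with DMSO (1.62 ± 0.12, adjusted p = 1.01e-11). These 2 genes were above DMSO with BD98 and below it with P-16. ARLNC1, a prostate noncoding RNA, averaged 5.32 CPM with BD98, 1.56 CPM with P-16 and 4.81 CPM with DMSO (1.78 ± 0.18, adjusted p = 3.71e-09), and TARP, a transcript of the T-cell receptor gamma locus made in prostate cells, 33 CPM with BD98, 9.84 CPM with P-16 and 33.3 CPM with DMSO (1.75 ± 0.087, adjusted p = 3.44e-16). P-16 lay below DMSO for both, and BD98 overlapped it. BTG1, an antiproliferative gene, was among the 5 smallest p on this side, at 279.8 CPM with BD98, 159 CPM with P-16 and 209.7 CPM with DMSO (0.82 ± 0.033, adjusted p = 2.34e-18).

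Summed luminal markers ran from 7613 to 7813 CPM with BD98, from 7954 to 7971 CPM with P-16 and from 10835 to 10859 CPM with DMSO, with 5 of 10 genes higher with each compound. The 5 higher with BD98 became 3 without BD98 replicate 3. Among all genes, 22.2% were higher with BD98 and 21.4% with P-16. Basal markers summed to 6.48 to 7.6 CPM with BD98 and 6.26 to 7.71 CPM with P-16, with 0 of 2 measured genes called. Neuroendocrine markers summed to 68.2 to 74.8 CPM with BD98, 91.7 to 92.6 CPM with P-16 and 41.9 to 44.3 CPM with DMSO, nearly all of it ENO2 (-0.41 ± 0.049, adjusted p = 7.69e-08). Mesenchymal markers summed to 553 to 596 CPM with BD98 and 971 to 977 CPM with P-16, nearly all of it FN1 (-0.80 ± 0.034, adjusted p = 7.62e-18), and VIM also differed (-1.07 ± 0.086, adjusted p = 2.06e-11). Of 6 measured mesenchymal genes, 3 were higher with P-16 and 1 with BD98, which was TWIST1 (0.43 ± 0.098, adjusted p = 7.56e-04). Immune markers summed to at most 7.03 CPM in the 9 libraries, with PTPRC at 0 counts. The endothelial sum, 56 to 57.4 CPM with BD98 and 14.6 to 16.5 CPM with P-16, was VWF almost alone (1.85 ± 0.078, adjusted p = 6.04e-18), with PECAM1 and KDR at 0 counts with P-16 and DMSO. Fewer cells of a type and less RNA per cell cannot be told apart in bulk RNA.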

How the data were processed

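RNA was sequenced from stranded mRNA libraries of 18 LNCaP samples, per the labels' protocols. The authors deposited estimated counts for 20145 genes, which carry decimals and were not adjusted for library depth. Per the submitters' processing notes, STAR, Partek and DESeq2 were used with build hg38, and their versions, the annotation and the use of strand are not given in the sources used here. Columns named PB_16 were taken as P-16, and 0 sample columns were left unused. The listed stop minus 1 was taken as a gene's end, which equals that of RefSeq for 72.8% of 19302 matched genes.

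After rounding, edgeR 4.0.16 (with limma 3.58.1, R 4.3.3) was run with filterByExpr over 6 groups, TMM factors, a robust quasi-likelihood fit of all 18 libraries with 12 residual degrees of freedom, two-sided F tests and Benjamini-Hochberg adjustment over 15422 genes, with a threshold of 0.05. One ACBI library stands apart by its share of ribosomal RNA (8.59%). The ACBI libraries enter the filter, the scaling and the estimate of spread, and a fit without them tested 15273 genes and made 7132 calls. The variation between libraries of a group beyond counting error, which may be technical, had a common coefficient of 0.0573 over all 18 libraries. The floor of 3 counts for genes at 0 equals 0.104 to 0.178 CPM in the 6 libraries. Replicates differed by more than counting error (chi-square per degree of freedom 2.96 to 8.80). Intervals of counts are exact, at 95%, and cover counting error only, since reads carry no molecular identifiers. Same-numbered libraries did not deviate together (residual correlations -0.022, -0.0011 and 0.0346), so no pairing was used.

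The members and the 34 gene lists were chosen with earlier results of these data known, and 548 of their 622 distinct genes were tested. Named genes were the 15 largest differences per direction with at least 4 CPM in the higher group, an adjusted p under 0.05 and no overlap of libraries; the 5 smallest p per direction; the 4 members with the smallest p of lists with at least 5 measured members and a share of at least 25% called, otherwise 2; the 5 largest per direction on opposite sides of DMSO; and a panel of 18 genes. Not all are reported, some genes are not reported here at all, and further list members are named after their values were seen. In counts simulated for 15323 genes, folds of 1.25, 1.5, 2 and 4 were set in 50 genes each, drawn from genes above 1 CPM with P-16. They were found at rates of 58%, 78%, 96% and 100%, with 10 false calls among 176 (5.68%). Far fewer genes were changed than the 43.6% called in the data, so these rates may differ for the comparison itself. Alternatives were DESeq2 1.42.0, RLE factors, library totals, no filter or a stricter filter, fits of 6 or 9 libraries, a replicate block, removal of ribosomal RNA, each library left out and, chosen after seeing the data, the fit without ACBI. Plots used Python 3.11.15 and matplotlib 3.10.9.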

Additional observations from a re-analysis of the deposited data

How the results depend on the processing

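Between 5835 and 7192 genes were called under the alternatives. DESeq2 called 6398, of which 6264 were among the 6728, and the replicate block called 6562 (3327 higher with BD98 and 3235 with P-16), although same-numbered libraries were not paired, and no list count moved by over 1.5 times under it. A stricter filter left 79 genes at least 2-fold higher with BD98 and 340 with P-16, of 13170 tested. Library totals changed the counts of the cholesterol (5 higher with P-16), mitosis (23 higher with BD98), MYC and ribosome (13 higher with P-16), BAF and PBAF (20 higher with BD98) and lysosome lists (3 higher with P-16). With each library left out in turn, calls ran from 5835 to 6103. The cholesterol genes higher with P-16 ran from 5 to 10, and the luminal markers higher with BD98 from 3 to 5. Of 152 genes named by rule, 8 changed their call or sign under some alternative. KRT14, not called with all libraries (-0.094), reversed to 0.46 without P-16 replicate 1, and ran from -0.29 to 0.46 with each library left out. COL1A1 lost its call under library totals (adjusted p = 0.137) or without BD98 replicates 2 or 3 or P-16 replicate 2. CD68 lost its call without BD98 replicate 2 or P-16 replicate 2. The cause of these changes was not tested. Depth may limit calls for genes under about 1 CPM, but this was not tested, since such genes were not changed in the simulation. The smallest simulated differences were recovered in 58% of cases, with far fewer genes changed than were called here.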

Other observations

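Targets of p53, the damage-response factor, were split. Of 23 measured members, 6 were higher with BD98 and 7 with P-16 (median -0.0022), against 22.2% and 21.4% of all genes. GDF15, described above, is also on this list and had its largest difference (-1.35 ± 0.046). CDKN1A, which encodes the cell cycle inhibitor p21, had 167, 182 and 178 CPM with BD98, 305, 319.6 and 314 CPM with P-16 and 272, 271 and 271 CPM with DMSO (-0.83 ± 0.046, adjusted p = 4.66e-15). P-16 lay above all DMSO libraries and BD98 below them, and CDKN1A overlaps the antisense gene DINOL. TP53I3, an oxidoreductase, averaged 13.4 CPM with BD98, 6.98 CPM with P-16 and 6.24 CPM with DMSO (0.94 ± 0.094, adjusted p = 2.16e-09), and MDM2 did not pass the test (-0.038 ± 0.057). Among 10 polyamine genes, 5 were higher with P-16 and 2 with BD98, against 21.4% and 22.2% of all genes. AMD1, which supplies the propylamine donor, averaged 493 CPM with BD98, 775 CPM with P-16 and 678 CPM with DMSO (-0.65 ± 0.048, adjusted p = 1.89e-11). SAT1, which starts polyamine breakdown, averaged 170.5 CPM with BD98, 113 CPM with P-16 and 154 CPM with DMSO (0.59 ± 0.035, adjusted p = 2.05e-14).

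Of 22 lysosome and autophagy genes, 9 were higher with BD98 and 6 with P-16, against 22.2% and 21.4% of all genes. The 6 became 3 under library totals. SQSTM1, an autophagy receptor, had 581, 598 and 603 CPM with BD98, 1167, 1189 and 1179 CPM with P-16 and 988, 959 and 990.03 CPM with DMSO (-0.99 ± 0.034, adjusted p = 6.06e-20), and the lysosomal channel MCOLN1 averaged 22.1 CPM with BD98, 15.8 CPM with P-16 and 16.7 CPM with DMSO (0.48 ± 0.073, adjusted p = 3.42e-06). SQSTM1 lay above DMSO with P-16 and below it with BD98. Of 14 glycosyltransferases, 7 were higher with P-16 and 4 with BD98, against 21.4% and 22.2% of all genes. The sialyltransferase ST3GAL1 averaged 485 CPM with BD98, 1228 CPM with P-16 and 707 CPM with DMSO (-1.34 ± 0.035, adjusted p = 4.49e-23). ST6GALNAC1 averaged 15.6 CPM with BD98, 6.67 CPM with P-16 and 24.4 CPM with DMSO (1.23 ± 0.12, adjusted p = 1.96e-09). Of 7 measured NF-kB targets, 2 were higher with BD98 and 1 with P-16, against 22.2% and 21.4% of all genes, and the 1 became 2 under 5 alternatives, among them without BD98 replicate 1. The inhibitor gene NFKBIA averaged 65 CPM with BD98, 43.3 CPM with P-16 and 52.4 CPM with DMSO (0.58 ± 0.050, adjusted p = 9.26e-11). PLA2G2A, a secreted phospholipase, averaged 35.1 CPM with BD98, 17.2 CPM with P-16 and 5.92 CPM with DMSO (1.03 ± 0.083, adjusted p = 2.35e-11), with both compounds above DMSO.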
